A study of Mus musculus with 6 samples.

Results

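The long noncoding RNA genes studied here were the rows annotated as lincRNA or antisense whose FPKM (fragments per kilobase of gene, scaled for depth) averaged at least 5 over the 6 libraries. They numbered 159 of the 54532 genes in the table, with 94 lincRNA and 65 antisense genes. No row carried the biotype lncRNA itself. Among all 8385 lincRNA and antisense rows, 2336 had no fragment in any library and 1043 reached a mean of 1 FPKM, the level from which genes were tested. Members were chosen by their own levels in these libraries, so their high expression is a description. The level rule also let in genes that were high in only 1 group, and these are counted apart below.

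The study sequenced total RNA from STRA8+ germ cells of mouse testis, in 3 control and 3 *Srsf1* conditional knockout (cKO) libraries. Control mice had the genotype Cre and cKO mice the genotype Srsf1 knockout, while the treatment entry read Conditional knockout for all 6 samples. The labels name no Cre driver, strain or age and no method by which the cells were isolated, and they do not say whether the libraries came from separate animals, so that p-values measure the spread between these libraries, which may be technical. STRA8 is the retinoic acid-induced protein that marks differentiating spermatogonia and germ cells entering meiosis, and SRSF1 is a serine/arginine-rich splicing factor.

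Long noncoding RNAs are transcripts without a long open reading frame that are mostly capped, spliced and polyadenylated like mRNAs. The lincRNA class lies between coding genes, whereas antisense RNAs overlap a coding gene on the other strand, often starting near its promoter. The testis is known for a broad repertoire of them, much of which is switched on in pachytene spermatocytes and round spermatids. The transcription factor A-MYB, encoded by *Mybl1*, drives many genes of the pachytene programme, and CREM and RFX2 act on later spermatid genes. A few members have better known roles, among them *Malat1*, which accumulates in the nuclear speckles where SR splicing factors are also found, and the imprinted *H19*.

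Promoters are printed here for the members with large falls and for 1 member that rose, because the falls were the largest changes among the members. The windows run from 250 bases before to 50 bases after the RefSeq start on the GRCm38.p6 build, 5′ to 3′ on the gene's strand. Capitals mark the 4 MYB hexamers on either strand, spelled CAACTG in the first form, CAACGG in the second form, TAACTG in the third form and TAACGG in the last. *Rbakdn* (chr5:143165702-143166001, minus strand), *1700008K24Rik* (chr17:49113484-49113783, minus strand), *1700020N18Rik* (chr1:91405980-91406279, minus strand) and *4930571K23Rik* (chr7:125368611-125368910, plus strand) each fell by at least 4.63 on the log2(FPKM + 1) scale. *2900093K20Rik* (chr2:163419521-163419820, plus strand) rose, and its window held none of these hexamers.
Rbakdn: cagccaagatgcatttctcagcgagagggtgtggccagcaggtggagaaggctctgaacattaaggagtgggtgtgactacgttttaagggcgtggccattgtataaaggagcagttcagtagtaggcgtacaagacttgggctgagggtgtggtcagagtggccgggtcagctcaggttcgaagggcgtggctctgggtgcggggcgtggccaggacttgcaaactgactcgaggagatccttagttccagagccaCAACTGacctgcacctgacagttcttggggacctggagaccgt
1700008K24Rik: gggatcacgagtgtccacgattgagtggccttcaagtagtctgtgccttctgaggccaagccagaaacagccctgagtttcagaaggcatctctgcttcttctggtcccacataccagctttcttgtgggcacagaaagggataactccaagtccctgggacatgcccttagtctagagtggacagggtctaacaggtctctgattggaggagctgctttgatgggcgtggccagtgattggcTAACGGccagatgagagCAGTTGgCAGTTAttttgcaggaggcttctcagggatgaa
1700020N18Rik: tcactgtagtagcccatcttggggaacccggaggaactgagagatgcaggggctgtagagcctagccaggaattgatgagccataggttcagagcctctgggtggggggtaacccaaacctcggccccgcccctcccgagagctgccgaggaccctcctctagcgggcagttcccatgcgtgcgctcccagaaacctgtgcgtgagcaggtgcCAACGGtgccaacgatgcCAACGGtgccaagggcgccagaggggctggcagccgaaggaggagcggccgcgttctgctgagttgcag
4930571K23Rik: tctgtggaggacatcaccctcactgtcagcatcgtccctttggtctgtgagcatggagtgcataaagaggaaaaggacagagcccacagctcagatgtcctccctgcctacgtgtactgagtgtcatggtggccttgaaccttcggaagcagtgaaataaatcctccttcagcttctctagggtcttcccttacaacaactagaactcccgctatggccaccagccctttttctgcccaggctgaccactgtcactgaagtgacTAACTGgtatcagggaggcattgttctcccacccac
2900093K20Rik: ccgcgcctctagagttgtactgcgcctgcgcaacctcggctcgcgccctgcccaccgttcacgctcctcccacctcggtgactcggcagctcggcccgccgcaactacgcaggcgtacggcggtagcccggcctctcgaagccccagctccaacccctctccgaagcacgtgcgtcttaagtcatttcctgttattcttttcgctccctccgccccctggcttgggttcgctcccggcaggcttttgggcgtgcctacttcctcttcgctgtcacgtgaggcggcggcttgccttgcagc

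Between 15364511 and 17310353 fragments per library were counted on genes in control, and between 14447887 and 15326722 in cKO. The targeted gene, *Srsf1*, stood at 84.7, 45.2 and 51.9 FPKM in control and at 5.08, 4.94 and 5.17 FPKM in cKO, which left 8.36% of its control level (adjusted p = 5.6e-05, limma). *Stra8* was at 222.1 to 261.7 FPKM in control and at 242.1 to 312.7 FPKM in cKO and was not called. All 10 spermatid markers fell, from a summed 2459 to 8303 FPKM in control to 7.96 to 9.30 FPKM in cKO, and of 10 pachytene markers 8 fell and 1, the testis histone gene *Hist1h1t*, rose. Summed over all 10, the pachytene markers were at 715.0 to 867.5 FPKM in control and at 112.1 to 135.4 FPKM in cKO. Of the 8 differentiating spermatogonia markers 1 fell, and of the 8 early meiotic markers 2 fell, with no rise in either list by limma. At an unadjusted p under 0.05, 3 differentiating markers were higher, and limma-voom called 1 marker of each list higher. The numbers of falls were the same under both settings. Of 4 general germ cell markers 1 rose and 2 fell. The summed Sertoli markers were at 57.4 to 86.2 FPKM in control and at 48.3 to 119.1 FPKM in cKO, and 1 of 7 rose. Leydig, peritubular and macrophage markers had 2 genes tested each and no call by limma. Of these, 1 Leydig and 1 peritubular gene were higher by limma-voom and at an unadjusted p under 0.05. The globin genes *Hbb-bs* and *Hba-a1* were not tested. Of all genes tested, limma called 11.8% higher and 22.2% lower. At an unadjusted p under 0.05, 18.3% were higher and 26.5% lower, and limma-voom called 16.2% higher and 21.5% lower. The part of cell composition in the results below was not tested, and in these bulk libraries fewer cells of a type and less RNA per cell cannot be told apart.

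In cKO cells 60 members fell and 28 rose, while 71 were not called (limma on log2(FPKM + 1), adjusted p of at most 0.05 over all genes tested). Of all 15451 genes tested, 22.2% fell and 11.8% rose. Among the 8929 genes at or above 5 FPKM on average, 21.4% fell and 14.0% rose. The members' median log2 fold change was -0.16 with a range from -7.05 to 1.61, and the median of all genes tested was -0.0082. Quantile normalization moved that overall median to 0.21 and the members' median to 0.076, and under it 52 members fell and 47 rose, beside 2527 and 5164 of all genes. Rises also depended on single libraries, with 16 without control replicate 1, 16 without cKO replicate 3 and 18 without cKO replicate 2. The 3 cKO values lay wholly apart from the 3 control values in 96 members, and in 50.4% of all genes tested. For 1 gene on its own, exact permutation of 3 libraries against 3 gives no p below 0.1.

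The counts divided sharply by where a gene reached the level of 5 FPKM. In both groups it was reached by 92 members, of which 19 rose, 11 fell and 62 were not called, with a median log2 fold change of 0.10. Of the 7768 genes of any biotype with at least 5 FPKM in both groups, 14.5% rose and 14.5% fell, and their median was 0.035. A further 55 members reached it in control only, of which 49 fell, and 12 in cKO only, of which 9 rose. These last counts follow partly from the rule, since a gene that passed through 1 group had to differ. They are given as an inventory.

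**Figure D1:**
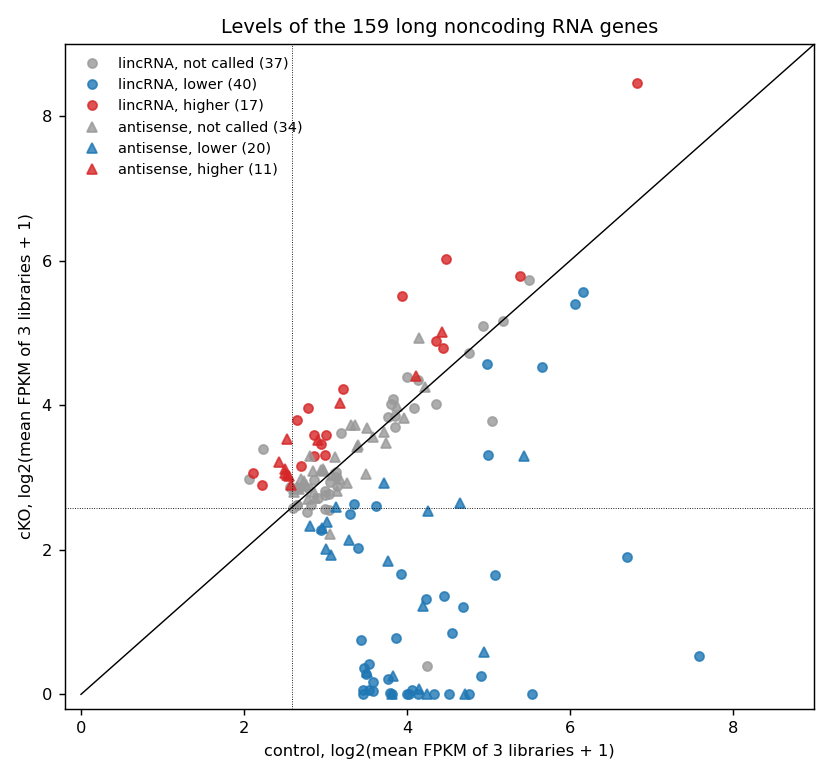
Mean level of each of the 159 genes in control (horizontal axis) and cKO (vertical axis), as log2(mean FPKM + 1) of 3 libraries per group, with circles for lincRNA, triangles for antisense genes, colours for the limma call and dotted lines at 5 FPKM. Genes that fell reach down to 0 in cKO, whereas genes that rose stay close to the diagonal, with *Gm26917* highest at 350.98 FPKM in cKO.

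On the log2(FPKM + 1) scale the lowest value was that of *Rbakdn*, a lincRNA named as the downstream neighbour of the zinc finger gene *Rbak*. It was among the most abundant members, at 193.8, 198.6 and 182.1 FPKM in control, and was at 0.400, 0.430 and 0.517 FPKM in cKO. The groups were far apart and each was tight, and the log2 fold change was -7.05 (SE 0.074, adjusted p = 8.9e-08, limma). In mean FPKM other members were deeper, such as *4930571K23Rik* at 0 in cKO and *Gm6567*, chosen after its values were seen, with 0.0786% of its control level left. *Rbak* itself was at 4.97 to 5.59 FPKM in control and 3.63 to 6.05 FPKM in cKO, where the groups overlapped.

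*1700008K24Rik*, a lincRNA on chromosome 17, stood at 110.7, 106.5 and 91.3 FPKM in control and at 3.82, 1.29 and 3.05 FPKM in cKO. Its log2 fold change was -4.87 (SE 0.26, adjusted p = 2.3e-05, limma). *1700020N18Rik* on chromosome 1 fell from 39.8, 22.5 and 24.8 FPKM to 0.465, 0 and 0.120 FPKM, a log2 fold change of -4.63. The neighbour of the latter, *Ilkap*, which encodes a protein phosphatase, kept 16.5 to 18.1 FPKM in cKO beside 17.1 to 18.5 FPKM in control, and its groups overlapped.

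Of the members, 12 had no fragment in any cKO library, 9 lincRNA and 3 antisense genes. In control these 12 held 38 to 2538 fragments per library. Against a floor of 3 fragments per cKO library they were at least 25.1- to 494.5-fold lower. The largest bound was that of *4930571K23Rik*, a single-exon lincRNA with 1136, 2538 and 1017 fragments (32.0, 76.9 and 27.3 FPKM) in control. Its bound rests on the control mean, which control replicate 2 raised. *Gm31072* was steadier, at 23.8, 21.8 and 20.3 FPKM in control, and its bound was 34.9-fold. *1700042G15Rik* (24.6, 18.4 and 14.5 FPKM) and the antisense gene *Gm14244* (22.5, 14.4 and 16.8 FPKM) were at least 64.3- and 218.2-fold lower. Together with genes at 1 or 2 fragments, 16 members stayed under 3 fragments in every cKO library.

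The antisense gene *1700027A15Rik* was also at 0 in cKO, and its control levels were 15.0, 46.5 and 14.0 FPKM. It runs across *Tnp1*, which encodes the spermatid transition protein that replaces histones before protamines, and 2.87% of its exon bases are shared with other genes. *Tnp1* had the same order of control libraries, at 338.7, 1205 and 321.1 FPKM, and fell to 1.02, 0.469 and 0.452 FPKM in cKO. Since no source used here gives the strand of the libraries, reads on the shared bases cannot be assigned to either strand. *1700108J01Rik*, antisense within the body of *Clybl*, a mitochondrial enzyme gene, stood at 26.5, 38.0 and 24.8 FPKM in control and at 0.657, 0.423 and 0.408 FPKM in cKO. *Clybl* was at 0.761 to 1.58 FPKM in control and at 0.926 to 2.41 FPKM in cKO, with groups that overlapped.

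**Figure D2:**
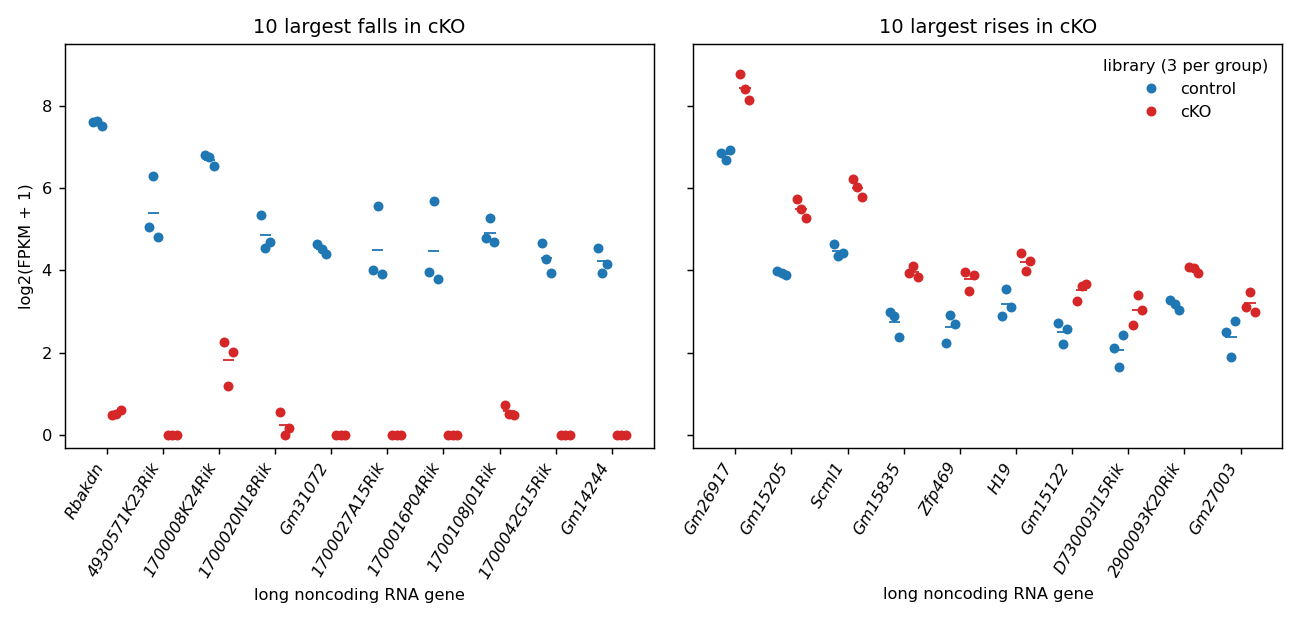
Level in each library, as log2(FPKM + 1), of the 10 members with the largest falls (left) and the 10 with the largest rises (right) among those called whose groups did not overlap, with 3 points and a line at the mean for control (blue) and cKO (red). Of the falls, 9 ended below 1 on this axis in every cKO library and *1700008K24Rik* at 1.29 to 3.82 FPKM, and the 3 rises above 1.5 on the log2 scale began from levels of 13.7 FPKM or more.

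Other falls were shallower on the log2(FPKM + 1) scale. *1700029M20Rik* was at 38.3, 28.8 and 31.4 FPKM in control and at 2.61, 1.51 and 2.28 FPKM in cKO, a log2 fold change of -3.44. *C2cd6b*, a lincRNA row, was at 21.8, 30.2 and 22.2 FPKM and at 1.30, 1.40 and 1.20 FPKM (log2 fold change -3.47). Some fell beside a coding gene that also fell. *2610318M16Rik*, within the body of *Oit1* on the other strand, was at 16.8, 12.6 and 10.1 FPKM in control and 0.330, 0.118 and 0.114 FPKM in cKO, and the log2 fold changes of the pair were -3.56 and -2.93. *Gm13942*, at 0 in cKO and at least 25.1-fold lower, lies nearest to *Gm13941* (-3.16), and *Wbscr25* (-3.95) overlaps *Cldn3* (-1.65), which encodes a tight junction claudin. These genes were chosen after their values were seen.

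Control replicate 2 stood apart for some of the falling members. In 9 of the 49 members that fell and had 5 FPKM in control only, its level was at least 2 times the mean of the other control libraries, and in none of the 92 members with 5 FPKM in both groups. The level rule bears on this contrast, since a high value in 1 control library itself helps a gene to enter through control only. The 9 were *1700027F06Rik* (5.45 times), *1700101O22Rik* (4.03 times), *1700016P04Rik* (3.70 times), *1700003E24Rik*, *Gm15104*, *1700027A15Rik*, *1700010D01Rik*, *4930571K23Rik* and *Wbscr25*, of which those outside the rule for named genes were chosen after their values were seen. *1700016P04Rik*, for example, was at 14.6, 50.6 and 12.8 FPKM in control and at 0 in cKO. The same library was at least 2 times the others in 9 of 10 spermatid markers (median 2.74) and in 1 of 10 pachytene markers (median 0.969). It was also at least 2 times the others in 1 of 2 Leydig (9.09 times), 1 of 2 peritubular (3.18 times) and 1 of 2 macrophage markers (2.85 times). The same held for 333 of the 8669 genes with 5 FPKM or more in control. The part of cell content in the level of these 9 genes was not tested. Without this library 62 members fell and 21 rose, and *1700016P04Rik* had a fitted log2 fold change of -3.87, which is no bound for a gene at 0 (adjusted p = 9.9e-06, limma).

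**Figure D3:**
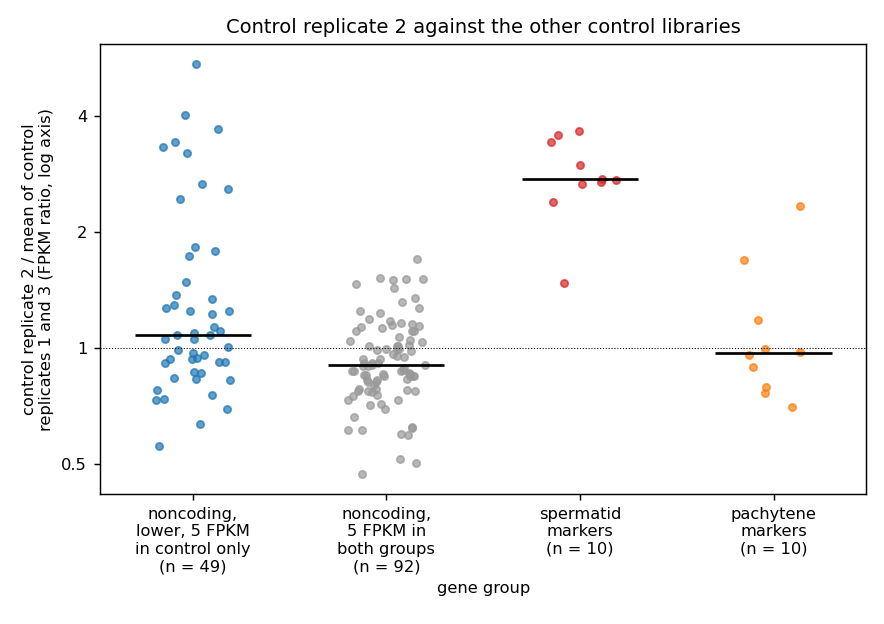
Ratio of control replicate 2 to the mean of control replicates 1 and 3 (FPKM, log axis) for each gene of 4 groups, with a line at the median. The falling noncoding genes spread from 0.558 to 5.45 around a median of 1.08, the 92 genes with 5 FPKM in both groups reach up to 1.70, and the spermatid markers have a median of 2.74.

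Not every fall ended near 0. Among the 11 falling members with at least 5 FPKM in both groups, the cKO mean was 0.210 to 0.743 times that of control. *Gm11837*, antisense to *Necab1*, went from 44.6, 41.8 and 40.3 FPKM to 9.24, 9.51 and 7.80 FPKM (log2 fold change -2.14), although only 69.0% of its 100-base windows were found in no other gene. *Med9os* starts beside the Mediator subunit gene *Med9* and went from 25.6, 26.6 and 20.2 FPKM to 5.43, 5.96 and 4.49 FPKM. *9330102E08Rik*, at 36.7, 27.9 and 27.9 FPKM in control, was at 9.87, 7.75 and 9.16 FPKM in cKO. These 3 genes were chosen after their values were seen. Of the most abundant members, *1700001L05Rik* had a log2 fold change of -0.57 (adjusted p = 0.014, limma) and *1700018B24Rik* of -0.66 (adjusted p = 0.010, limma). In cKO the first was at 47.6, 49.2 and 43.0 FPKM and the second at 35.1, 44.7 and 43.5 FPKM. *1700001L05Rik* was not called without cKO replicate 3 (adjusted p = 0.056).

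The rises were smaller, at 1.25- to 3.13-fold in mean FPKM. On the log2(FPKM + 1) scale *Gm26917* and *Gm15205* had the highest values, and their order turned with a pseudocount of 0.1, quantile normalization, limma-voom or leaving out control replicate 2 or cKO replicate 1. *Gm26917* was at 114.0, 102.4 and 120.5 FPKM in control and 435.1, 338.6 and 279.3 FPKM in cKO, a log2 fold change of 1.61 (SE 0.16, adjusted p = 3.6e-04, limma). It was the most abundant of the members, with a mean of 231.6 FPKM. *Gm26917* lies on chromosome 17 from 39843013 to 39846341 of GRCm38, and its annotated end is 12 bases before the RefSeq 18S ribosomal RNA locus *Rn18s-rs5*. A neighbouring row annotated as ribosomal RNA, *CT010467.1*, was at 188.0 to 223.6 FPKM in control and at 286.7 to 422.9 FPKM in cKO, a log2 fold change of 0.69 (adjusted p = 0.016, limma). The part of ribosomal RNA precursor reads in the level of *Gm26917* was not tested.

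*Gm15205* belonged to a pair of adjoining X-linked lincRNA rows on the minus strand, separated by 1778 bases. *Gm15205* was at 15.0, 14.2 and 13.7 FPKM in control and at 52.2, 44.1 and 38.0 FPKM in cKO (log2 fold change 1.57, SE 0.12, adjusted p = 1.0e-04, limma). The row named *Scml1*, classed as lincRNA in the table although the symbol belongs to a Polycomb-related family, rose from 24.0, 19.5 and 20.6 FPKM to 73.0, 64.4 and 54.4 FPKM (log2 fold change 1.53). In both the cKO libraries stood in the same order, and every cKO library was above every control library. Whether they are 1 transcription unit was not tested. Of the 6 X-linked members these were the ones that rose. *1700003E24Rik*, *Gm15104* and *1700010D01Rik* fell, and *Tslrn1*, named as a testis-specific long noncoding RNA, was at 23.4 to 32.9 FPKM in control and 26.1 to 41.0 FPKM in cKO.

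*H19*, the maternally expressed imprinted RNA and host of miR-675, rose from 6.49, 10.7 and 7.66 FPKM to 20.4, 14.8 and 17.8 FPKM, a log2 fold change of 1.02 (SE 0.19, adjusted p = 0.0061, limma). Its neighbour *Mrpl23*, a mitochondrial ribosomal protein gene, had a log2 fold change of 0.39 and was not called (adjusted p = 0.060, limma), although every cKO library was above every control library. It was called higher by limma-voom (adjusted p = 0.034), under quantile normalization (0.0071) and without control replicate 2 (0.042). *Gm15835* had a log2 fold change of 1.20, from 4.22 to 6.99 FPKM in control to 13.3 to 16.3 FPKM in cKO. For *Zfp469*, a row classed as lincRNA in the table, the value was 1.17, and for *Gm15122* it was 1.00. *2900093K20Rik*, within the body of *Oser1* on the other strand, moved from 8.78, 8.17 and 7.24 FPKM to 15.9, 15.7 and 14.3 FPKM (log2 fold change 0.85, adjusted p = 6.2e-04, limma). *Oser1*, an oxidative stress-responsive gene, was at a log2 fold change of -0.018 and was not called. The rises of *D730003I15Rik* (0.96) and *Gm27003* (0.81) were close to the threshold, with adjusted p = 0.025 and 0.037 (limma), and were not called with no filter on FPKM (0.053 and 0.075). Nor were they called without control replicate 1 (0.066 and 0.079), control replicate 2 (both 0.053) or cKO replicate 2 (0.072 and 0.11). *D730003I15Rik* was also not called without cKO replicate 3 (0.075), and *Gm27003* not without cKO replicate 1 (0.081) or cKO replicate 3 (0.064).

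Smaller rises included a widely used locus. *Gt(ROSA)26Sor*, the noncoding RNA of the *Rosa26* locus into which transgenes are often placed, was at 23.1, 17.1 and 21.4 FPKM in control and at 31.8, 36.6 and 25.6 FPKM in cKO (log2 fold change 0.59, adjusted p = 0.027, limma). It was chosen after its values were seen, and 8.55% of its exon bases are shared with other genes.

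Beside *H19*, 2 members of the lists of characterised long noncoding RNAs were called, *Malat1* and *Tug1*. *Malat1* was at 21.6, 15.3 and 21.4 FPKM in control and at 29.9, 30.1 and 25.9 FPKM in cKO, a log2 fold change of 0.55 (adjusted p = 0.024, limma), and it was not called without cKO replicate 1 (0.077) or cKO replicate 2 (0.073). *Tug1*, a spliced RNA needed for male fertility in mice, was at 15.6, 16.1 and 16.9 FPKM in control and at 21.7, 20.2 and 18.7 FPKM in cKO, a log2 fold change of 0.30 (adjusted p = 0.028, limma). It shares 11.6% of its exon bases with other genes, and it was called in the absence of cKO replicate 3 but of no other library (adjusted p = 0.054 to 0.086). Of the 4 nuclear-retained genes tested, these 2 rose and none fell by limma or limma-voom, with 1 lower at an unadjusted p under 0.05. Of all genes tested, 11.8% were higher and 22.2% lower by limma, and 18.3% and 26.5% at an unadjusted p under 0.05.

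The snoRNA host genes, whose introns carry small nucleolar RNAs that guide rRNA modification, gave 4 rises and no fall by limma in 18 genes tested, beside 11.8% higher and 22.2% lower of all genes. At an unadjusted p under 0.05 there were 7 rises and 1 fall, beside 18.3% and 26.5% of all genes, and limma-voom called 4 rises and 1 fall, beside 16.2% and 21.5%. Only *Snhg6* and *Epb41l4aos* of them were members, the others being classed under other biotypes or lower. *Snhg6* was at 15.2, 15.4 and 19.2 FPKM in control and at 17.5, 23.2 and 17.3 FPKM in cKO, and *Epb41l4aos* at 12.0, 13.2 and 15.3 FPKM and at 12.0, 13.3 and 10.6 FPKM. Neither was called, and in both the groups overlapped. Of 4 microRNA host genes tested none was called by limma, while 2 were higher at an unadjusted p under 0.05 (18.3% of all genes) and 1 by limma-voom (16.2%). The member *Mir17hg*, precursor of the miR-17-92 cluster, was at 5.02 to 7.79 FPKM in control and 5.31 to 5.93 FPKM in cKO. The list of X-inactivation genes had 1 gene tested, which was not called by limma or limma-voom and was higher at an unadjusted p under 0.05. The imprinted list had 2, of which *H19* rose and *Nespas*, which is no member, fell (log2 fold change -0.72, adjusted p = 0.018, limma).

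Among 7 other characterised genes tested, *Tug1* rose and 1 gene fell, *Crnde*, which is no member (log2 fold change -0.75, adjusted p = 0.010, limma). Of all genes tested, 11.8% rose and 22.2% fell by limma. *2900097C17Rik*, the mouse *Norad*, which binds Pumilio proteins, was at 27.6, 23.8 and 27.0 FPKM in control and at 25.6, 26.1 and 24.8 FPKM in cKO. Its log2 fold change was -0.031 (SE 0.077), although 69.9% of its windows were found in no other gene. *1700020I14Rik*, the RNA known as Cyrano, was at 15.5, 11.8 and 13.0 FPKM and at 12.2, 14.8 and 13.5 FPKM (log2 fold change 0.0074, SE 0.12). The groups of both genes overlapped.

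The counts by class of member are given as an inventory, beside 22.2% lower and 11.8% higher of all genes tested, and differences between classes were not tested. Of the 94 lincRNA genes 40 fell and 17 rose (median log2 fold change -0.26), and of the 65 antisense genes 20 fell and 11 rose (median 0.0048). With 5 FPKM in control only, 33 of 38 lincRNA and 16 of 17 antisense genes fell. With it in both groups, 7 of 51 lincRNA genes fell and 15 rose, and 4 of 41 antisense genes fell and 4 rose. With it in cKO only, 2 of 5 lincRNA and 7 of 7 antisense genes rose. Among the 31 genes named after RIKEN clones of testis libraries, 23 fell and 1 rose, with a median of -3.24. Of these 31, 21 had 5 FPKM in control only, of which 20 fell, and 10 had it in both groups, of which 3 fell and 1 rose. The 128 genes with other names had 37 falls and 27 rises, with a median of -0.034, and 34 of them had 5 FPKM in control only, of which 29 fell. Members with 1 exon gave 4 falls and 5 rises in 19 genes, and those with 3 or more exons 32 falls and 10 rises in 74 genes. With 5 FPKM in both groups these were 1 fall and 4 rises in 13 genes, and 6 falls and 7 rises in 41 genes. With it in control only, 3 of 4 and 26 of 29 genes fell. The median gene length was 766.5 bases in members that fell, 1848 bases in those that rose and 778 bases in those not called. Their GC content was nearly the same, at 48.8%, 49.0% and 47.7%.

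Overlap with another gene bears on what could be counted. Exons of 57 members overlap another annotated gene, of which 16 fell, 12 rose and 29 were not called. Of the 102 without such an overlap 44 fell and 16 rose, and of all genes tested 22.2% fell and 11.8% rose. In 20 members less than 90% of the 100-base windows were unique to the gene, among them *1700003E24Rik* at 20.9%, which shares windows with *BC061195*. How reads on the shared windows were assigned is not given in the sources used here.

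Each member was set beside the coding gene that it overlaps or whose start is nearest, and 128 coding neighbours could be tested. Among 44 falling members with a tested neighbour, 16 neighbours also fell, 2 rose and 26 were not called. Over all 128 tested neighbours 29 fell and 23 rose, and of all genes tested 22.2% fell and 11.8% rose. Neighbours of members with 5 FPKM in control only were lower in 15 of 41 (36.6%), and those of members with 5 FPKM in both groups in 12 of 74 (16.2%), a difference that was not tested. Beside 23 members that rose, 2 neighbours rose, 5 fell and 16 were not called. As a description across genes measured in the same libraries, the log2 fold changes of the 128 pairs had a Pearson coefficient of 0.38 and a Spearman coefficient of 0.32. In the 27 pairs with divergent starts within 5000 bases the values were 0.19 and 0.22. The 46 pairs set by nearest start gave 0.35 and 0.47. The 11 antisense pairs whose gene bodies but not exons overlap gave 0.52 and 0.091. The 43 pairs whose exons overlap on opposite strands gave 0.70 and 0.31, and 0.60 and 0.26 without the *Tnp1* pair, and their shared bases cannot be parted without strand.

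Of 8 falling members with a divergent, tested neighbour, 3 neighbours also fell and 5 were not called. *Gm26799* starts 91 bases from *Rad18*, a ubiquitin ligase of DNA damage tolerance, and had a log2 fold change of -2.67, with 12.1, 8.25 and 9.09 FPKM in control and 0.795, 0.502 and 0.773 FPKM in cKO. The log2 fold change of *Rad18* was 0.039. For *Med9os* and *Med9*, whose starts are 64 bases apart, the log2 fold changes were -1.99 and -0.25, and both were called lower (adjusted p = 0.033 for *Med9*, limma). *Gm12319* and *Eno3*, the muscle enolase, were at -1.13 and -1.22, with *Gm12319* at 44.6 to 55.4 FPKM in control and 20.1 to 23.2 FPKM in cKO. In the opposite case, *4930426I24Rik* was at -0.028 beside *Hspa2*, a heat shock protein of spermatocytes, at -1.16. The pairs in this paragraph were chosen after their values were seen, and differences within pairs were not tested.

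**Figure D4:**
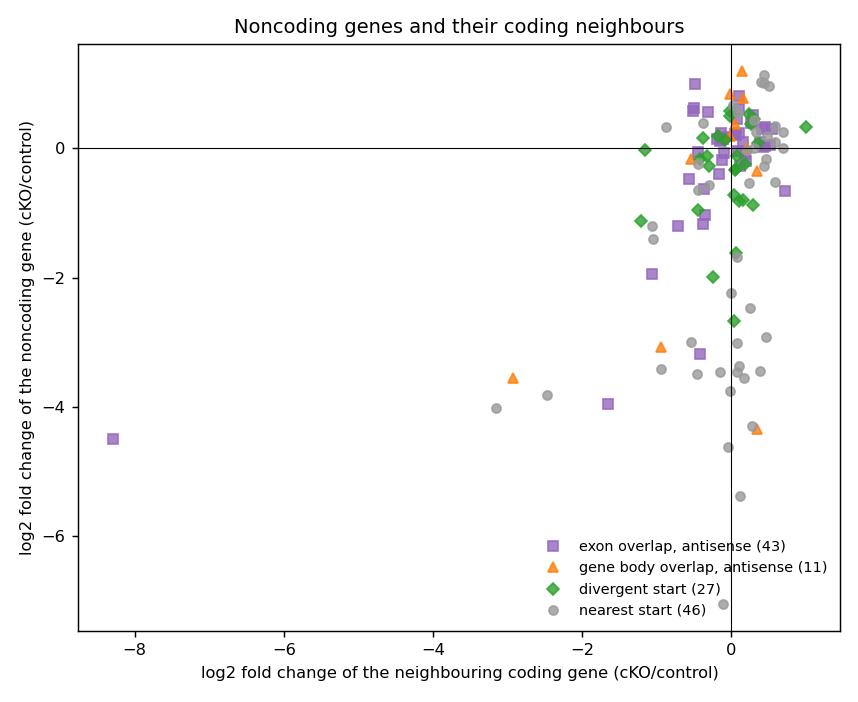
Log2 fold change (cKO/control) of each noncoding gene (vertical axis) against that of its coding neighbour (horizontal axis), by the kind of neighbourhood, for 127 of the 128 tested pairs, without the 1 pair that overlaps on the same strand. *Rbakdn* and *Rbak* stand at -7.05 and -0.11, and *1700027A15Rik* and *Tnp1* at -4.49 and -8.29.

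RefSeq promoters could be matched to 72 of the 159 members. At least 1 of the 4 MYB hexamers, on either strand, was found in 17 of 31 falling members (54.8%), in 2 of 11 that rose (18.2%) and in 7 of 30 not called (23.3%). Of all 32817 promoters of the same length in that table, 28.3% held one. In the falling members with 5 FPKM in control only the share was 14 of 24 (58.3%). The windows of *Rbakdn*, *1700008K24Rik*, *1700020N18Rik* and *4930571K23Rik* printed above each hold such letters, and that of *1700016P04Rik* holds none. *Mybl1* itself was at 14.9 to 22.0 FPKM in control and 16.4 to 23.7 FPKM in cKO and was not called.

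Of the 72 matched members, the other motifs searched were found in 2 (cAMP response element, 2.78%) and 9 (X-box core, 12.5%). The cAMP response element TGACGTCA, a palindrome, was found in 1 of 31 falling members, in none of 11 that rose and in 1 of 30 not called, beside 1.79% of all promoters. The X-box core GTTGCC, searched on both strands, was in 2 of 31 falling members, 2 of 11 that rose and 5 of 30 not called, beside 12.5% of all promoters. A match of letters is a description of sequence, and binding was not measured in these libraries.

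Several members varied too much between libraries to be called. *Gm48168* was at 47.5, 0 and 6.19 FPKM in control and at 0.175, 0.750 and 0 FPKM in cKO, with a log2 fold change of -2.47 (SE 1.25, adjusted p = 0.17, limma). *Gm45027* was at 18.7, 22.6 and 54.8 FPKM in control and at 13.9, 17.5 and 6.75 FPKM in cKO (adjusted p = 0.087, limma). *Lsmem2* was at 1.48, 4.77 and 4.86 FPKM in control and at 13.1, 4.26 and 11.2 FPKM in cKO (adjusted p = 0.10, limma). In *Gm48168* and *Lsmem2* the groups overlapped, and in *Gm45027* they did not. These 3 were chosen after their values were seen.

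At the threshold itself, the members just inside were *1700003E24Rik* (mean 5.01 FPKM), *E130307A14Rik* (5.02 FPKM) and *1700126G02Rik* (5.02 FPKM). Just outside were *4930557K07Rik* (4.98 FPKM), *Gm11521* (4.94 FPKM) and *6720427I07Rik* (4.88 FPKM).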

How the data were processed

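RNA-seq of 6 libraries was analysed, grouped by genotype in the labels. The authors deposited FPKM for 54532 genes. HISAT2 2.0.5 and mm10 are named in the submitters' processing notes, and the counting tool is not given in the sources used here. Multiplied by gene length, 100% of the values in each library were whole multiples of 1 step (tolerance 0.02), which gave the fragments counted, between 14447887 and 17310353 per library. The deposited FPKM already carried a factor per library equal to median-of-ratios scaling over 21303 genes.

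Genes averaging 1 FPKM or more (15451) were compared on the log2(FPKM + 1) scale by limma 3.58.1 under R 4.3.3 (lmFit, eBayes with a trend, two-sided, Benjamini-Hochberg over all genes tested, threshold 0.05). Fold changes on this scale understate those of low genes. The computation was tested on simulated data. Floors of 3 fragments cover counting error only. The members and gene lists were chosen with earlier results of these data known. Named genes were members of the lncRNA lists, the 10 largest rises and falls called with groups that did not overlap, the 5 highest members, 3 members either side of the threshold, the coding neighbours of these rises and falls, and *Srsf1*. Gene models came from GENCODE M21, which held all 159 members, 156 of them at the same coordinates and 157 with the same biotype. Promoters came from RefSeq (GRCm38.p6), matched within 1000 bases. Alternatives were a pseudocount of 0.1, other filters and scalings, limma-voom on recovered fragments, no trend, the replicate number as a block, and leaving out each library. FPKM recomputed from fragments without the factor was chosen after seeing the data.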

Additional observations from a re-analysis of the deposited data

How the results depend on the processing

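No member that was called changed direction under the alternatives run. Of the 60 falls, 55 to 59 were kept when any 1 library was left out, and of the 28 rises 15 to 19. In those fits 55 to 62 members fell and 16 to 21 rose, with 10 to 14 lincRNA and 5 to 9 antisense rises, and of all genes 969 to 1767 rose. The numbers of rises among members were 17 with no filter on FPKM, 47 under quantile normalization, 17 with the replicate block, 7 at an absolute log2 fold change of at least 1, 16 among members whose exons overlap no other gene and 57 among lincRNA and antisense rows with a mean of at least 2 FPKM. Falls numbered 11 among members with 5 FPKM in both groups and 210 among rows with at least 2 FPKM. The lincRNA rises were 10 with no filter, 11 with the block and 6 at the minimum fold, and the antisense rises 7, 6 and 1, or 24 under quantile normalization. Of all genes, 5164 rose under quantile normalization, 891 with the block and 177 at the minimum fold, and 1950 fell with a filter of 5 FPKM and 1939 at the minimum fold. The cause of these differences was not tested, beyond the smaller sets of genes or libraries that some settings use.

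The replicate block kept 60 falls and 17 rises of members, and *Malat1* (adjusted p = 0.055), *Tug1* (0.10), *D730003I15Rik* (0.057) and *Gm27003* (0.092) were not called under it (limma). Libraries with the same number did not deviate together (r of -0.0014, -0.11 and 0.016). Between libraries of different number r ran from -0.15 to 0.13, so this check cannot decide whether the numbers pair the samples.

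Values near 0 changed sign. Under quantile normalization *Mir17hg* was at 0.11, *Epb41l4aos* at 0.0032, *2900097C17Rik* at 0.076, *Rbak* at 0.19, *Ilkap* at 0.095 and *Oser1* at 0.10. With limma-voom and with FPKM recomputed from fragments, *2900097C17Rik* was at 0.015 and 0.016, *Ilkap* at 0.0023 and 0.0034 and *Oser1* at 0.033 and 0.029. With 1 library left out, the values ran from -0.093 to 0.0077 for *2900097C17Rik*, from -0.076 to 0.11 for *1700020I14Rik*, from -0.055 to 0.20 for *4930557K07Rik*, from -0.25 to 0.057 for *Rbak*, from -0.099 to 0.33 for *Kdm8* and from -0.064 to 0.052 for *Oser1*. None of these was called. Depth limits the members at 0 in cKO, for which only a bound on the fall can be given.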
